A study of Mus musculus with 18 samples.

Results

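The enzymes that make cholesterol, the proteins that control them and the proteins that move or bind sterols were examined as 1 set of genes in mouse hepatoma cells. The set held 28 genes, chosen by name as members of the cholesterol synthesis pathway or as targets and regulators of the sterol regulatory element binding proteins (SREBPs). Of these, 26 were measured by at least 1 probe set carrying a single gene symbol, among 18193 genes measured in all. *Acat2* and *Soat1* were listed without such a probe set and were not analysed here. Each gene is represented by its probe set of highest mean signal, and all levels are log2 signals as deposited.

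Total RNA came from 2 related lines grown in alpha MEM with fetal bovine serum. The *c*35 line is a mutant derivative of Hepa-1c1c7 that expresses an aryl hydrocarbon receptor (AHR) unable to bind DNA. The wild-type line is the mouse hepatoma line Hepa-1c1c7 itself. Cells of each line received 5 nM of the dioxin TCDD, 5 µM of the polycyclic hydrocarbon benzo[*a*]pyrene (BaP) or the solvent dimethyl sulfoxide (DMSO) alone, and RNA was taken after 8 hr. The cells given DMSO alone are called naive. The 6 groups were *c*35 TCDD, *c*35 BaP, *c*35 DMSO, wild-type TCDD, wild-type BaP and wild-type DMSO, with 3 arrays in each, which the methods describe as biological replicates. The labels of the wild-type TCDD arrays gave no dose, and the dose of the methods was used. Because *c*35 is a single mutant line, the part of the receptor mutation in a difference between the lines cannot be told apart from that of any other difference the lines carry. In bulk RNA, fewer cells of a type and less RNA per cell cannot be told apart either.

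Cholesterol is built from acetyl-CoA through mevalonate, isoprenoid diphosphates, squalene and lanosterol, and the last steps trim and rearrange the sterol ring. SREBP2, the product of *Srebf2*, is the main transcription factor of these enzymes, and SREBP1, the product of *Srebf1*, acts more on fatty acid synthesis. When sterols are low, the escort protein SCAP carries the SREBPs to the Golgi, where proteases release the active factor, and when sterols are high, INSIG proteins hold SCAP in the endoplasmic reticulum. The liver is a main site of this synthesis.

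The 2 lines were well separated. The correlation between arrays was r = 0.995 to 0.998 within *c*35 cells, 0.991 to 0.997 within wild-type cells and 0.969 to 0.98 between lines, and no arrays held identical values. *Cyp1a1*, the classic AHR target, checked the ligand labels, with log2 signals of 12.92 to 13.47 in the ligand-treated wild-type cells and 9.61 to 9.81 in naive wild-type cells. In *c*35 cells it was at 8.32 to 8.34 on DMSO replicates 1 and 2 and BaP replicate 3, and at 4.87 to 6.23 on the other arrays of the line, so that the level in *c*35 cells did not follow the ligand. The gap between the 3′ and 5′ control probe sets of *Actb*, a measure of RNA breakdown (3′ minus 5′), was 0.296 to 0.529 on the log2 scale in *c*35 cells and 0.73 to 1.38 in wild-type cells, with no overlap. Of 8 hepatocyte markers measured, 1 was below the median signal of 5.65 in each line, and their mean log2 signal per array was 7.953 to 8.16 in *c*35 cells and 8.233 to 8.474 in wild-type cells. In the naive comparison the median difference of the 8 was -0.11, with 3 higher and 5 lower in *c*35 cells, and albumin (*Alb*), at -2.46 (adjusted p = 3.60e-14, limma), was the only 1 called; with either ligand *Alb* and *Apoa2* were called lower. The mean of 7 fibroblast markers was 8.433 to 8.588 in *c*35 cells and 8.584 to 8.909 in wild-type cells. In naive cells their median difference was -0.24, with 1 called higher and 2 lower (6.52% and 7.52% of all genes). The mean of 6 macrophage markers was 6.265 to 6.348 in *c*35 cells and 5.79 to 5.972 in wild-type cells, with 3 of the 6 below the median signal. Their median naive difference was 0.04, with 2 called higher, *Cd68* and *Csf1r*, and 0 lower. Endothelial markers averaged 4.05 to 4.275 in *c*35 cells and 4.022 to 4.146 in wild-type cells, with 5 of 6 below the median signal. The part of these differences in the results between lines was not tested. A fit with the *Actb* gap is given with those results. Since the gap did not overlap between lines, that fit cannot tell its part from that of the line.

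Promoter sequences of the enzymes with the largest difference between the naive lines are given first, since both the SREBPs and the AHR act through short DNA motifs. RefSeq windows on GRCm38.p6, from 250 bases before to 50 after the start site, were at hand for 21 of the 26 genes, 29 windows in all, and *Fdft1* has no entry among them. The windows shown are those of *Msmo1* (chr8:64733529-64733828, minus strand), *Idi1* (chr13:8885356-8885655, plus strand), *Lss* (chr10:76531355-76531654, plus strand) and *Hmgcs1* (chr13:119690101-119690400, plus strand), written 5′ to 3′ in the direction of transcription. Capitals mark matches, on either strand, to CCAAT (the box bound by NF-Y), GCGTG (the core that the ligand-activated AHR recognizes), CACGTG (an E-box, which the SREBPs can bind) or TCACNCCAC (a sterol regulatory element), and no matches overlapped.
Msmo1: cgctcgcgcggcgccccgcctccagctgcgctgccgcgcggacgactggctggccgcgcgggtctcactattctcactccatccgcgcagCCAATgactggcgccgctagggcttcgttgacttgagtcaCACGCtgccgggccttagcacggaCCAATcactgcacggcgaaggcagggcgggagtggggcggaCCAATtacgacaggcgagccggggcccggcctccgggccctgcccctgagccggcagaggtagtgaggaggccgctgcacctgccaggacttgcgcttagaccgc
Idi1: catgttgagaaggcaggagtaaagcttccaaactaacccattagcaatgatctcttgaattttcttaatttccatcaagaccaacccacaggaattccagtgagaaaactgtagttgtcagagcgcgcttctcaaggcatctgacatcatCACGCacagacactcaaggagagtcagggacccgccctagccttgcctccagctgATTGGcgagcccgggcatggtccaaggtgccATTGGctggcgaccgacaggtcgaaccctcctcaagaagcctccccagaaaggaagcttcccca
Lss: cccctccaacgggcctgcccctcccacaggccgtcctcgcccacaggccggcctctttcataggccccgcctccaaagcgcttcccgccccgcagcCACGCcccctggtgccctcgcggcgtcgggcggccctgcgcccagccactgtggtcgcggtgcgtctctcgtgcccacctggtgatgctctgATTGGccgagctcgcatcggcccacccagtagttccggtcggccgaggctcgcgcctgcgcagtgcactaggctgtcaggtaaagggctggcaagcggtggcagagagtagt
Hmgcs1: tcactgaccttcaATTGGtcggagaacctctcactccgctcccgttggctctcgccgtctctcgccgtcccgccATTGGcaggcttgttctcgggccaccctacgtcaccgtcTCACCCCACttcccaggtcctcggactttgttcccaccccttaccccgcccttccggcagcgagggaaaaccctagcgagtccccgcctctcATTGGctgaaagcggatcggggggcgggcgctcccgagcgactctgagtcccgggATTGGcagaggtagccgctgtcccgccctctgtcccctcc

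The *Hmgcs1* window held 4 CCAAT matches and the only sterol regulatory element match among the windows of these genes, 137 bases before the start site. In the *Msmo1* window 3 CCAAT matches stood 160, 96 and 55 bases before the start site, and the *Idi1* and *Lss* windows held 2 and 1. A GCGTG match was present in the *Msmo1*, *Idi1* and *Lss* windows, 120, 100 and 154 bases before the start, and not in that of *Hmgcs1*. Over all members, 72.4% of the 29 windows held CCAAT, against 37.4% of the 32851 windows of all genes, and 41.4% held at least 2 matches, against 11.7% of all windows. Among the 17 windows of the synthesis enzymes, 14 (82.4%) held that motif. The motif GCGTG was in 55.2% of the members' windows and 32.4% of all windows, CACGTG in 20.7% and 7.15%, and TCACNCCAC in 3.45% and 1.24%. These are matches of letters and no evidence of binding.

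Most enzymes of cholesterol synthesis had higher signals in *c*35 than in wild-type cells, under each of the 3 treatments. A gene was called when the adjusted p was below 0.05 (limma, Benjamini-Hochberg over all probe sets) and the difference was above 1.5-fold. With TCDD, 12 of the 26 genes were called higher and 1 lower in *c*35 cells, where 6.32% and 8.65% of all genes were called. With BaP the counts were 12 higher and 2 lower, against 6.83% and 8.98% of all genes, and in naive cells 9 higher and 1 lower, against 6.52% and 7.52%. At an adjusted p below 0.05 without regard to size, 17 members were higher and 3 lower with TCDD (19.1% and 19.8% of all genes), 17 and 5 with BaP (19.8% and 19.7%), and 17 and 3 with DMSO (19.1% and 18.7%). The median log2 difference of the 26 genes, *c*35 minus wild-type, was 0.53 with TCDD, 0.43 with BaP and 0.48 with DMSO, and that of all genes was 0.03 in each comparison. The 3 comparisons rest on separate arrays, but they compare the same 2 lines and share the spread of 1 fit. Members called higher in all 3 numbered 9, where 4.67% of all genes were. No member was called lower in all 3, which 5.82% of all genes were. These 9 were *Hmgcs1*, *Mvd*, *Idi1*, *Fdps*, *Fdft1*, *Lss*, *Cyp51*, *Msmo1* and *Nsdhl*, all synthesis enzymes. Over all treatments, 15 of the 26 genes had every *c*35 array above every wild-type array, as did 13.9% of all genes, and 2, *Srebf1* and *Npc1*, had every *c*35 array below, as did 14.4%.

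**Figure D1:**
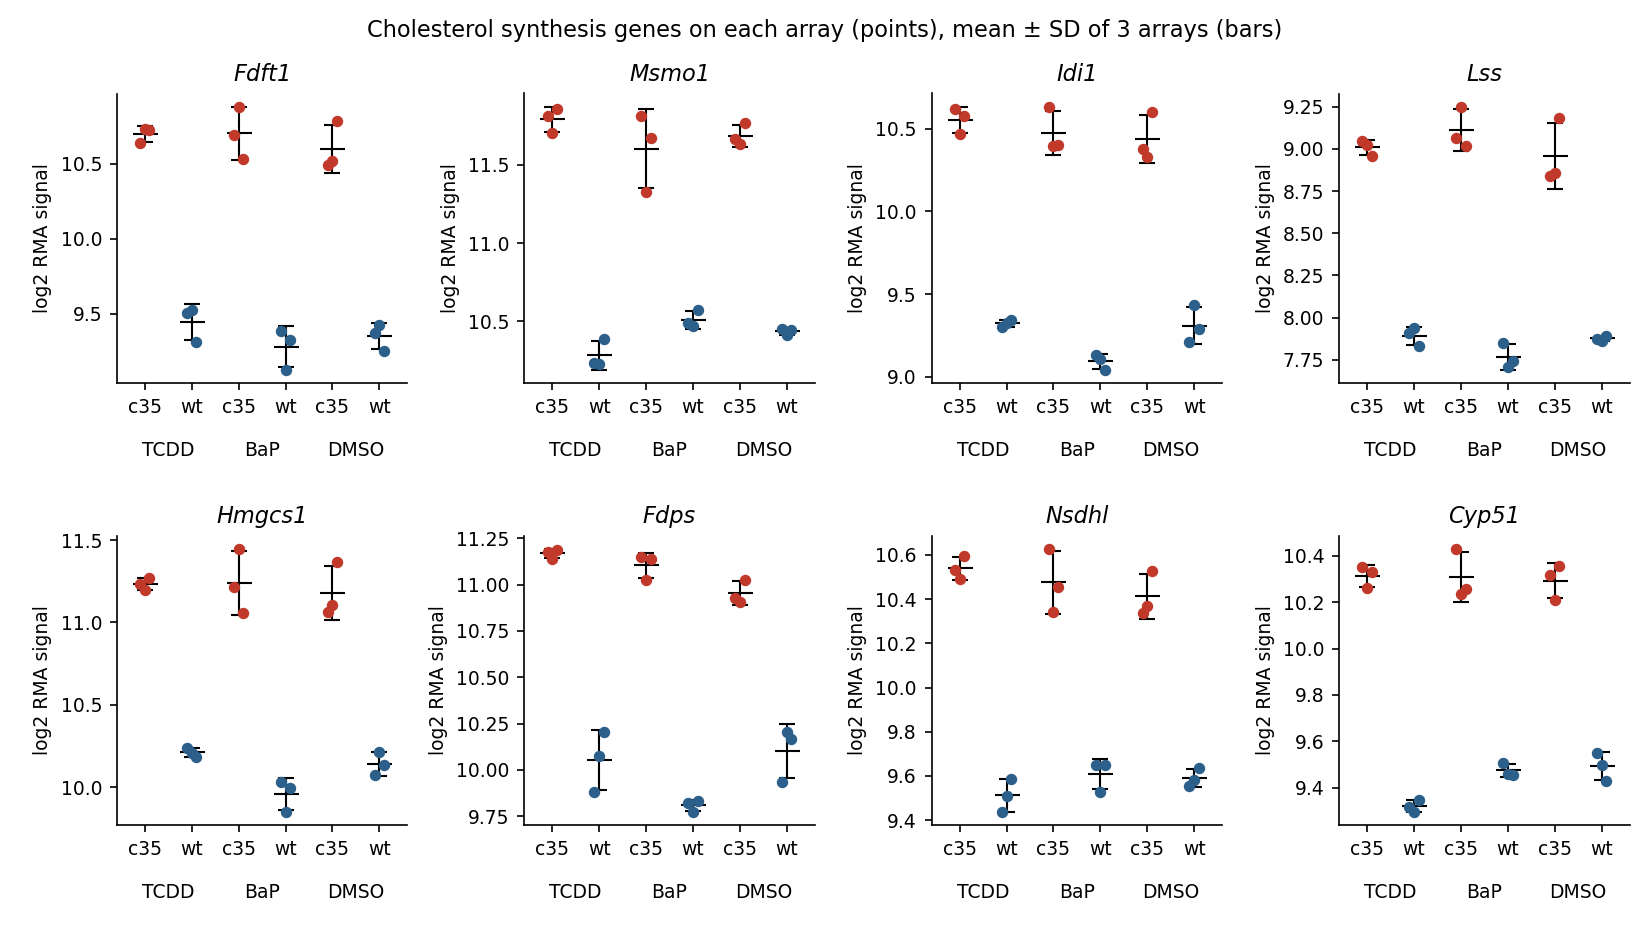
Log2 signal (y axis) on each of the 18 arrays for the 8 called genes with the largest difference between naive lines, 1 panel per gene, with *c*35 groups left of wild-type groups; points are arrays and bars are group means. In each panel all 9 *c*35 arrays lie above all 9 wild-type arrays, while ligand and DMSO groups of a line lie close together.

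The 4 early mevalonate enzymes were all higher in *c*35 cells in each comparison (adjusted p below 0.05), where 19.1% to 19.8% of all genes were. *Hmgcs1*, the cytosolic synthase that makes HMG-CoA, led them. *Hmgcs1* signals on the log2 scale in *c*35 cells were 11.23, 11.20 and 11.27 with TCDD, 11.22, 11.45 and 11.06 with BaP, and 11.06, 11.11 and 11.37 with DMSO. In wild-type cells they were 10.24, 10.21 and 10.18 with TCDD, 10.03, 9.85 and 9.997 with BaP, and 10.07, 10.21 and 10.13 with DMSO. No wild-type array reached the lowest *c*35 array, and within *c*35 cells the arrays of highest and lowest signal were both BaP arrays. The fitted difference was 1.03 with TCDD, 1.28 with BaP and 1.04 with DMSO (SE, 0.09 each), the last a 2.06-fold difference with an adjusted p of 8.99e-09. *Mvd*, the diphosphomevalonate decarboxylase that makes isopentenyl diphosphate, ranged over 7.78, 8.04 and 8.31 (lowest, median and highest) on the 9 *c*35 arrays and over 6.84, 7.13 and 7.29 on the 9 wild-type arrays. Its difference was 1.01 with TCDD, 1.05 with BaP and 0.70 with DMSO, and the last fell below 1.5-fold, to 0.57, without *c*35 DMSO replicate 3. The kinases between these steps differed less. *Mvk*, mevalonate kinase, had log2 differences of 0.54, 0.64 and 0.51 with TCDD, BaP and DMSO, and *Pmvk*, phosphomevalonate kinase, had 0.50, 0.67 and 0.32. Both were called with BaP alone, and the *Mvk* call was lost, at 0.57, without wild-type BaP replicate 2. For both kinases every *c*35 array was nevertheless above every wild-type array.

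Of the 5 enzymes that lead from isopentenyl diphosphate to lanosterol, 4 were called higher in *c*35 cells in all 3 comparisons. The share of all genes was 4.67%. *Idi1* encodes the isomerase that interconverts the isoprenoid building blocks. Its signals in *c*35 cells were 10.62, 10.47 and 10.58 with TCDD, 10.63, 10.40 and 10.40 with BaP, and 10.38, 10.33 and 10.60 with DMSO. The wild-type signals were 9.30, 9.33 and 9.34 with TCDD, 9.13, 9.11 and 9.04 with BaP, and 9.21, 9.43 and 9.29 with DMSO. The lowest *c*35 array, at 10.33, stood above the highest wild-type array, at 9.43, and the difference was 1.23 with TCDD, 1.38 with BaP and 1.13 with DMSO (SE, 0.08 each; adjusted p = 6.90e-10 in naive cells). *Fdps*, farnesyl diphosphate synthase, makes the intermediate at the branch point to sterols and protein prenylation. On *c*35 arrays its signal was 11.18, 11.14 and 11.19 with TCDD, 11.15, 11.03 and 11.14 with BaP, and 10.93, 10.91 and 11.03 with DMSO. Wild-type arrays gave 9.88, 10.08 and 10.21 with TCDD, 9.82, 9.77 and 9.83 with BaP, and 9.94, 10.21 and 10.17 with DMSO. Wild-type BaP arrays were the lowest of all for this gene, and in *c*35 cells the 3 DMSO arrays included the 2 lowest. The difference between lines was 1.11 with TCDD, 1.29 with BaP and 0.85 with DMSO (SE, 0.08 each), a 1.80-fold difference in naive cells.

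*Fdft1*, squalene synthase, commits farnesyl diphosphate to sterols and had the largest difference of the set between naive lines. In *c*35 cells its signals were 10.64, 10.73 and 10.72 with TCDD, 10.69, 10.88 and 10.53 with BaP, and 10.49, 10.52 and 10.78 with DMSO. In wild-type cells the signals were 9.50, 9.53 and 9.31 with TCDD, 9.39, 9.13 and 9.32 with BaP, and 9.37, 9.42 and 9.25 with DMSO. The lowest *c*35 array, at 10.49, stood well above the highest wild-type array, at 9.53. The difference was 1.25 with TCDD, 1.42 with BaP and 1.25 with DMSO (SE, 0.10 each), the last 2.38-fold (adjusted p = 1.79e-09). *Lss*, lanosterol synthase, closes the sterol rings. On *c*35 arrays it was 9.04, 9.02 and 8.96 with TCDD, 9.07, 9.25 and 9.01 with BaP, and 8.84, 8.86 and 9.18 with DMSO. On wild-type arrays it was 7.91, 7.94 and 7.83 with TCDD, 7.85, 7.71 and 7.74 with BaP, and 7.87, 7.86 and 7.89 with DMSO. Its wild-type arrays spread by less than its *c*35 arrays and did not overlap with them, with differences of 1.12 with TCDD, 1.34 with BaP and 1.08 with DMSO (SE, 0.09 each). *Sqle*, squalene epoxidase, the enzyme between these steps, differed by 0.51, 0.34 and 0.34 with TCDD, BaP and DMSO, at adjusted p-values of 8.86e-06, 0.000768 and 0.000894, and was below 1.5-fold throughout. Its arrays ranged over 11.69, 11.94 and 12.004 in *c*35 cells and 11.39, 11.49 and 11.73 in wild-type cells, which overlapped.

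The 8 enzymes of the later sterol steps were more mixed, with 3 of them called higher in all 3 comparisons, as were 4.67% of all genes. *Msmo1*, a monooxygenase that acts in the removal of methyl groups from the ring, was the gene of this group with the largest difference. Its *c*35 signals were 11.81, 11.70 and 11.86 with TCDD, 11.81, 11.32 and 11.67 with BaP, and 11.66, 11.63 and 11.76 with DMSO. Wild-type cells had 10.23, 10.23 and 10.39 with TCDD, 10.49, 10.47 and 10.58 with BaP, and 10.45, 10.41 and 10.45 with DMSO. The lowest *c*35 signal was on BaP replicate 2, and the TCDD arrays were the lowest of the wild-type cells. The difference was 1.51 with TCDD, 1.09 with BaP and 1.25 with DMSO (SE, 0.09 each; 2.37-fold in naive cells, adjusted p = 7.54e-10). *Nsdhl*, a decarboxylating sterol dehydrogenase of the same steps, followed. The *c*35 arrays read 10.53, 10.49 and 10.60 with TCDD, 10.63, 10.34 and 10.46 with BaP, and 10.34, 10.37 and 10.53 with DMSO. The wild-type arrays read 9.44, 9.51 and 9.59 with TCDD, 9.65, 9.53 and 9.65 with BaP, and 9.55, 9.58 and 9.64 with DMSO. No arrays overlapped between lines, and the difference was 1.03 with TCDD, 0.87 with BaP and 0.82 with DMSO (SE, 0.07 each). *Cyp51*, lanosterol demethylase, was the third. Signals of *c*35 cells were 10.35, 10.26 and 10.33 with TCDD, 10.43, 10.24 and 10.26 with BaP, and 10.32, 10.21 and 10.35 with DMSO. Signals of wild-type cells were 9.32, 9.30 and 9.35 with TCDD, 9.51, 9.46 and 9.46 with BaP, and 9.55, 9.50 and 9.43 with DMSO. For this gene the wild-type TCDD arrays were all below the other wild-type arrays, and the difference between lines was 0.99 with TCDD, 0.83 with BaP and 0.80 with DMSO (SE, 0.06 each).

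Among the remaining 5, *Ebp*, a sterol isomerase, differed by 0.60 with TCDD, 0.31 with BaP and 0.58 with DMSO, with no overlap of arrays. It was called with TCDD only, and this call, close to 1.5-fold, was lost without *c*35 TCDD replicate 2 (0.58), *c*35 TCDD replicate 3 (0.58) or wild-type TCDD replicate 2 (0.58). *Sc5d*, a sterol desaturase, differed by 0.49, 0.25 and 0.45 with TCDD, BaP and DMSO, and *Dhcr7*, the reductase of a last step of the pathway, by 0.48, 0.42 and 0.32, all at an adjusted p below 0.05 and below 1.5-fold. *Hsd17b7*, a sterol keto-reductase, differed by 0.06, 0.02 and -0.05 by its chosen probe set, with 95% intervals between -0.23 and 0.24. Among its other probe sets, given below, some were called higher. *Tm7sf2*, a sterol reductase, was the exception among the enzymes, with differences of -0.43, -0.46 and -0.65. Its mean signal of 6.05 was near the median of the arrays, its arrays overlapped, and its call in naive cells was lost without *c*35 DMSO replicate 1 (-0.55) or wild-type DMSO replicate 1 (-0.50), and the difference was -0.18 (adjusted p = 0.615) with the *Actb* gap in the fit. At an adjusted p below 0.05, 15 of the 17 enzymes were higher in *c*35 cells with TCDD, 15 with BaP and 15 with DMSO. The shares of all genes were 19.1%, 19.8% and 19.1%. Every *c*35 array was above every wild-type array for 13 of the 17, as it was for 13.9% of all genes.

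**Figure D2:**
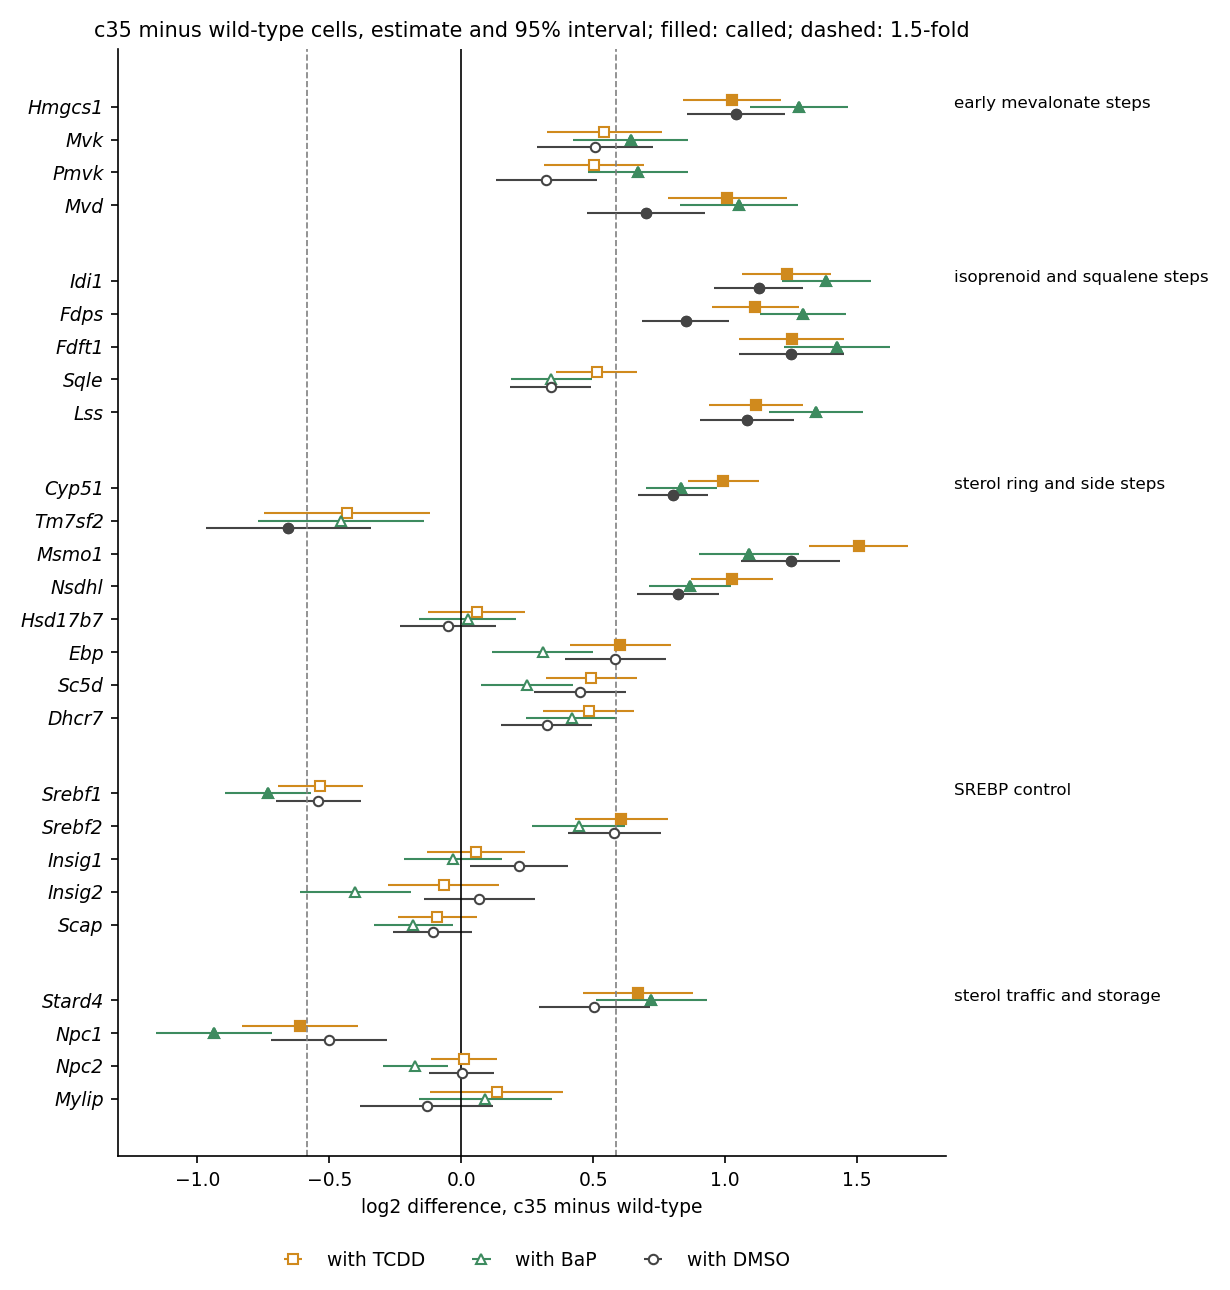
Log2 difference, *c*35 minus wild-type (x axis), for each of the 26 genes (y axis, grouped by role) with TCDD, BaP and DMSO; bars are 95% intervals and filled points are called. The synthesis enzymes lie mostly to the right of 0, with *Tm7sf2* to the left, and the regulators and sterol carriers lie on both sides.

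The genes that control the pathway did not move as 1 group. *Srebf2* was higher in *c*35 cells by its chosen probe set (mean, 9.34), ranging over 9.50, 9.59 and 9.79 on the *c*35 arrays and 8.91, 9.04 and 9.28 on the wild-type arrays, with no overlap. Its difference was 0.61 with TCDD, 0.45 with BaP and 0.58 with DMSO, all at an adjusted p below 0.05. Only the TCDD difference passed 1.5-fold, and not without *c*35 TCDD replicate 3 (0.56). A second *Srebf2* probe set (mean, 9.31) differed by 0.27 with TCDD, 0.25 with BaP and 0.13 with DMSO, the last at an adjusted p of 0.176, and was not called. *Srebf1* lay the other way, ranging over 9.44, 9.52 and 9.64 on the *c*35 arrays and 9.83, 10.16 and 10.32 on the wild-type arrays. Its difference was -0.53 with TCDD, -0.73 with BaP and -0.54 with DMSO (SE, 0.08 each), and it was called lower with BaP (adjusted p = 1.65e-07). That call was lost with the *Actb* gap in the fit (-0.50). *Insig1* differed by 0.06, -0.03 and 0.22 with TCDD, BaP and DMSO, none at an adjusted p below 0.05. *Insig2* differed by -0.07, -0.40 and 0.07, and the BaP value (adjusted p = 0.00315) was measured with *c*35 BaP replicate 2 at 8.38, below every other array for this gene. Another *Insig2* probe set of like brightness (mean, 8.87) differed by 0.37 with TCDD, 0.09 with BaP and 0.53 with DMSO. A dimmer *Insig2* probe set (mean, 7.88) differed by -0.16, -0.44 and -0.04, and neither was called. *Scap* differed by -0.09, -0.18 and -0.11, none at an adjusted p below 0.05. Thus 1 of 5 was called higher with TCDD, where 6.32% of all genes were, 1 lower with BaP, where 8.98% were, and 0 with DMSO, and nothing is read from these counts about the group.

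The 4 genes of sterol transport and uptake were divided as well. *Stard4*, a cytosolic sterol carrier and a known SREBP target, ranged over 9.39, 9.58 and 9.69 on the *c*35 arrays and 8.66, 8.92 and 9.11 on the wild-type arrays. It differed by 0.67 with TCDD, 0.72 with BaP and 0.50 with DMSO, and was called higher with either ligand. The TCDD call was lost when wild-type TCDD replicate 1 was left out (0.58). With the *Actb* gap in the fit both calls were lost, at 0.44 with TCDD and 0.51 with BaP. *Npc1*, which moves cholesterol out of lysosomes, was lower in *c*35 cells, at 7.90, 8.22 and 8.37 on the *c*35 arrays and 8.59, 8.81 and 9.16 on the wild-type arrays. Its difference was -0.61 with TCDD, -0.94 with BaP and -0.50 with DMSO, called lower with either ligand, the TCDD call not without *c*35 TCDD replicate 1 (-0.48). *Npc2*, the soluble partner of NPC1 in the lysosome, had signals that overlapped between lines and differed by 0.01, -0.17 and 0.00, and *Mylip*, a ubiquitin ligase, differed by 0.13, 0.09 and -0.13.

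**Figure D3:**
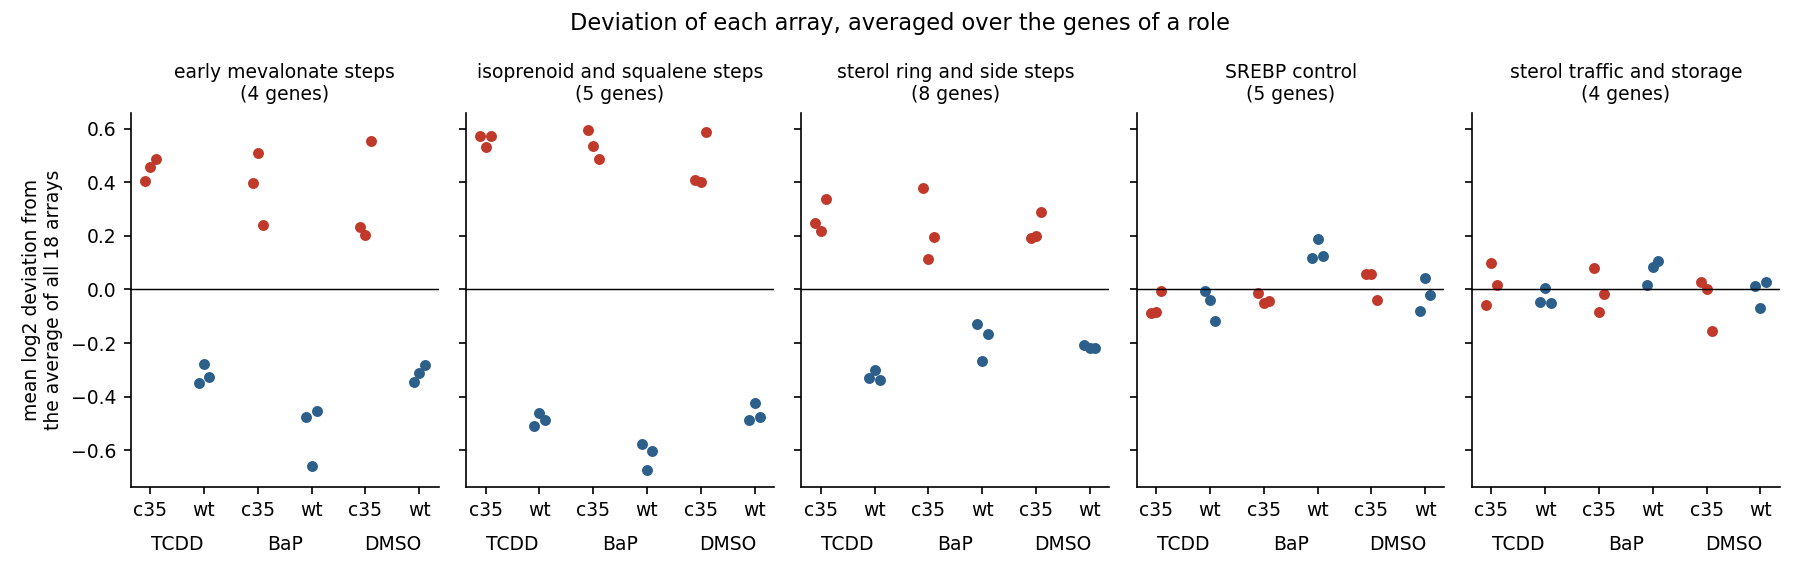
Mean deviation of log2 signal from each gene's mean over all 18 arrays (y axis), per array, for the genes of each role, with *c*35 groups left of wild-type groups. In the panels of the synthesis enzymes all *c*35 arrays lie above all wild-type arrays. In the panels of SREBP control and of sterol traffic and storage the lines overlap.

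Within a line the enzymes varied little as a group. Averaged over the 17 enzymes as the deviation from each gene's mean, the log2 signal was 0.38, 0.37 and 0.44 on the *c*35 TCDD arrays, 0.45, 0.33 and 0.29 on the *c*35 BaP arrays, and 0.27, 0.26 and 0.44 on the *c*35 DMSO arrays. On wild-type arrays it was -0.39, -0.34 and -0.38 with TCDD, -0.34, -0.48 and -0.36 with BaP, and -0.32, -0.30 and -0.31 with DMSO. The 3 lowest *c*35 arrays, DMSO replicates 1 and 2 and BaP replicate 3, were the 3 with the high *Cyp1a1* signal, and the part of what sets those arrays apart was not tested. Without those arrays, a choice made after the values were seen, 12 members were called higher and 2 lower with BaP, and 11 higher and 2 lower in naive cells. The naive comparison then held 1 *c*35 array, DMSO replicate 3, which the fit assumes to vary like the arrays of the other groups. With the *Actb* gap in the fit, 10 members were called higher and 0 lower with TCDD, 11 and 1 with BaP, and 8 and 0 with DMSO. Of the 9 genes called in all comparisons, *Fdps* alone then fell below 1.5-fold, in naive cells (0.56). Outside these 9, the fit lost the calls of *Ebp*, *Srebf2*, *Stard4* and *Npc1* with TCDD. It also lost those of *Mvk*, *Stard4* and *Srebf1* with BaP, and of *Tm7sf2* in naive cells. The counts with either ligand include members not called without the gap. As the gap did not overlap between lines, this fit cannot tell it apart from the line.

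Other probe sets of the same genes were read from the same arrays and RNA. They bear on the choice of probe set and are no separate measure of the cells. Several belong to 1 gene and are not separate members. There were 30 of them, for 16 of the 26 genes, of which 8 had a mean below the median signal. With TCDD 13 of the 30 were called higher and 2 lower in *c*35 cells, where 8.5% and 9.58% of all 16752 probe sets of this kind were. With BaP the counts were 13 and 2 (8.34% and 10.3% of all), and in naive cells 11 and 2 (8.28% and 8.92%). All 5 probe sets of *Hmgcs1* were called higher in each comparison. The second bright probe set of *Fdft1* differed by 1.40 with TCDD, 1.51 with BaP and 1.31 with DMSO, while 2 dim ones, with mean signals of 5.56 and 5.51, differed by at most 0.28 and were not called. Probe sets disagreed for *Lss*. Of its other probe sets, 1 (mean, 6.62) differed by 0.71 with TCDD, 0.68 with BaP and 0.66 with DMSO, called higher each time. The other (mean, 6.09) differed by -0.84, -0.54 and -0.91, called lower with TCDD and with DMSO. Probe sets also disagreed for *Cyp51*. Of its 2 other probe sets, 1 (mean, 7.88) differed by 0.27 with TCDD, 0.02 with BaP and -0.03 with DMSO. The dimmer (mean, 5.82) differed by 0.19, 0.11 and -0.03, and neither was called. For *Sc5d* another probe set (mean, 7.24) lay the other way, at -0.54 with TCDD, -0.86 with BaP and -0.31 with DMSO, and was called lower with BaP. For *Npc2* another (mean, 6.46) was called lower each time, at -0.62, -0.98 and -0.77. *Hsd17b7*, without a difference by its brightest probe set, differed by 1.22 with TCDD, 0.97 with BaP and 0.89 with DMSO by another (mean, 8.91), called each time. A further *Hsd17b7* probe set (mean, 8.37) differed by 0.78, 0.60 and 0.43, called higher with TCDD and with BaP. Its dimmest (mean, 4.94) differed by 0.03, -0.14 and -0.0006, not called. *Stard4* was measured by 2 further probe sets, of which 1 (mean, 8.50) differed by 1.43, 1.53 and 1.20, called each time, and the other (mean, 8.17) by 0.06, 0.23 and -0.01, not called. Another probe set of *Mvk* (mean, 7.28) differed by 0.91, 1.01 and 1.01, all called. When the mean of all probe sets stood for each gene, *Lss* and *Cyp51* lost their calls in all 3 comparisons and *Mvd* and *Fdps* in naive cells. The only other *Fdps* probe set had a mean of 2.27, far below the median signal. It differed by 0.09 with TCDD, -0.04 with BaP and 0.07 with DMSO. Which transcripts each probe set detects was not examined.

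Neither ligand changed a gene of the set beyond the call threshold. With TCDD against DMSO in wild-type cells 0 of 26 were called, where 0.379% of all genes were, and with BaP against DMSO 0 of 26, where 1.32% were. At an unadjusted p below 0.05, 3 members were lower with TCDD (14.3% of all genes in either direction), and 5 were higher and 4 lower with BaP (19.2% of all genes in either direction). The 2 comparisons share the DMSO arrays. The intervals bounded the changes: the 95% interval lay within 1.5-fold either way for 25 of 26 genes with TCDD and 26 of 26 with BaP. The median log2 change of the 26 genes was -0.05 with TCDD and -0.03 with BaP, and that of all genes was 0.01 and 0.00. With TCDD the lowest adjusted p of the set was 0.257, for *Cyp51*, at a change of -0.17 (SE, 0.06), followed by *Sqle* at -0.19 (SE, 0.07).

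With BaP in wild-type cells, 2 genes passed an adjusted p of 0.05 at changes below 1.5-fold, as did 6.48% of all genes at any size of change. *Insig1*, whose protein holds back SREBP activation and which is itself a SREBP target, was at 9.47, 9.56 and 9.44 with BaP and 8.86, 9.32 and 9.15 with DMSO. The groups did not overlap, and the change was 0.38 (SE, 0.09; adjusted p = 0.0139). Leaving out wild-type DMSO replicate 1, the lowest array for this gene, gave 0.25 (adjusted p = 0.0588), and without wild-type BaP replicate 2 the adjusted p was 0.0780. *Fdps* was at 9.82, 9.77 and 9.83 with BaP and 9.94, 10.21 and 10.17 with DMSO, again without overlap, and fell by 0.29 on the log2 scale (SE, 0.08; adjusted p = 0.0320). Its adjusted p was above 0.05 when any wild-type BaP array, or DMSO replicate 2 or 3, was left out, and reached 0.122 without BaP replicate 2. *Npc1* had a change of 0.36 (SE, 0.11; adjusted p = 0.0559), *Insig2* of 0.28 (SE, 0.10; adjusted p = 0.131) and *Pmvk* of -0.29 (SE, 0.09; adjusted p = 0.0730).

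TCDD and BaP were set against each other in wild-type cells at their own doses, and 0 of 26 genes were called, where 0.258% of all genes were. At an unadjusted p below 0.05, 4 were higher and 9 lower with TCDD than with BaP, 13 in all, where 15.9% of all genes passed in either direction, and the lowest adjusted p was 0.142. The genes with higher values under TCDD were *Fdps* (0.25), *Hmgcs1* (0.25), *Pmvk* (0.26) and *Idi1* (0.23), of the early mevalonate and isoprenoid steps, and the 9 with lower values included *Npc1* (-0.32), *Srebf1* (-0.23), *Msmo1* (-0.23) and *Insig1* (-0.22). All 26 intervals lay within 1.5-fold, the widest bound being 0.57 on the log2 scale.

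**Figure D4:**
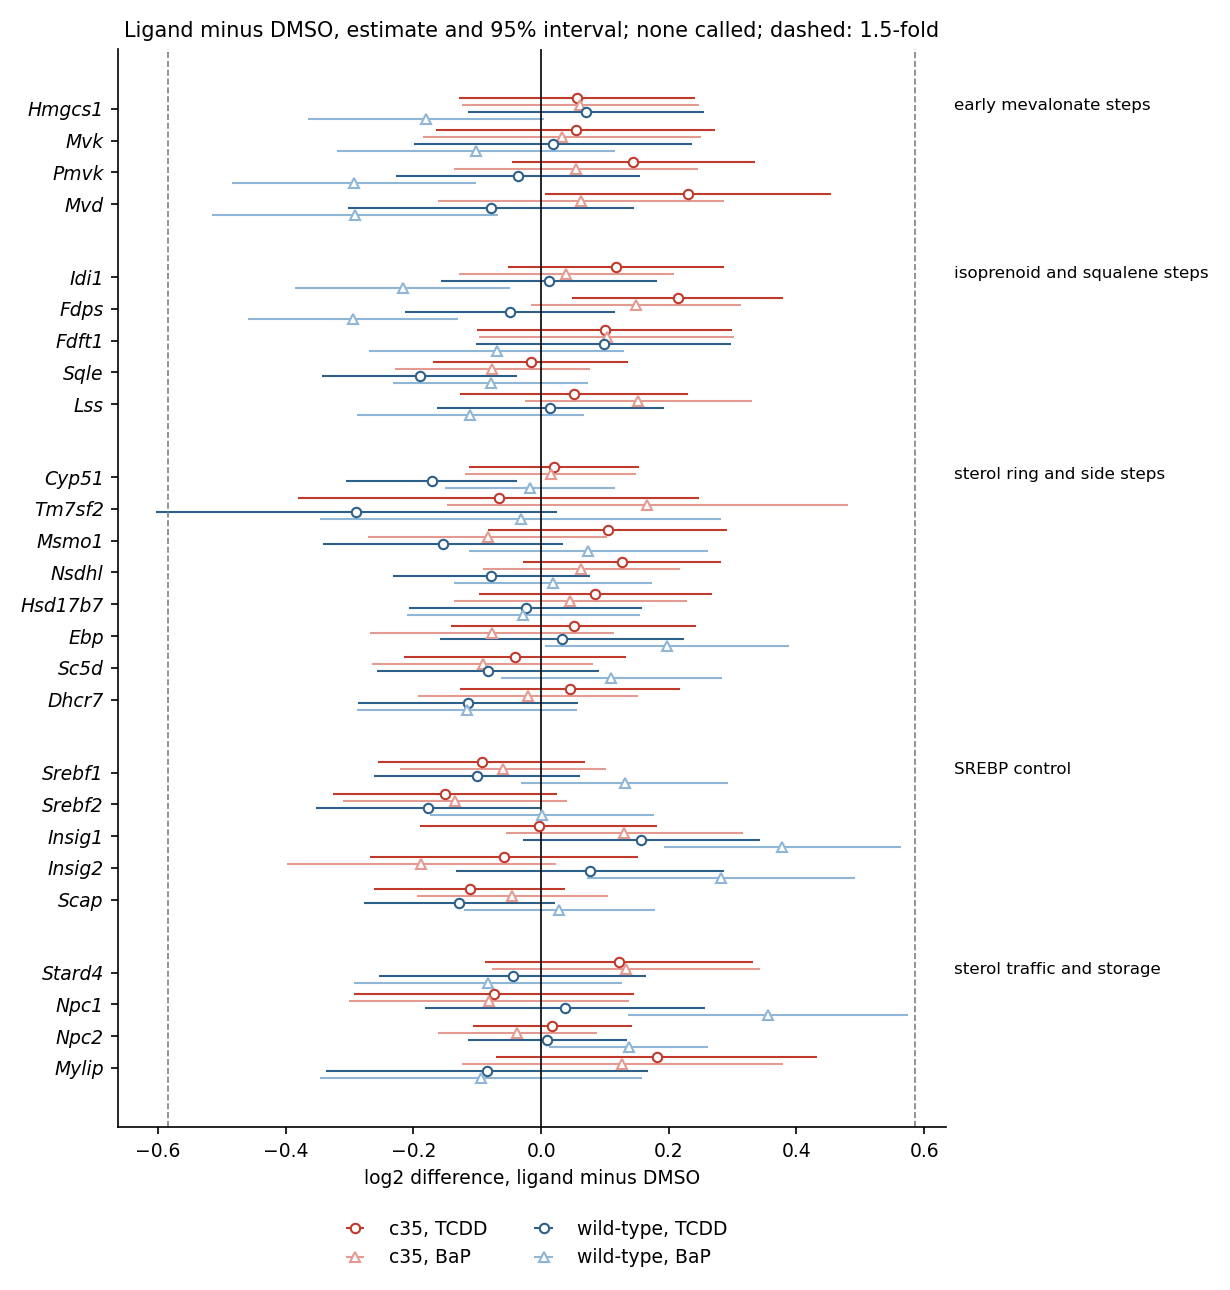
Log2 change, ligand minus DMSO (x axis), for each of the 26 genes (y axis) in *c*35 and wild-type cells, for TCDD and BaP; bars are 95% intervals and dashed lines mark 1.5-fold. Of all intervals shown, only 1, for TCDD in wild-type cells, crosses a dashed line.

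For ligands in *c*35 cells the threshold was an adjusted p of 0.1 at any size of change, and 0 of 26 genes passed it for either ligand, as did 0 of all 18193 genes (limma; 0% of all genes). At an unadjusted p below 0.05, 2 members were higher with TCDD, *Fdps* (0.21; SE, 0.08) and *Mvd* (0.23; SE, 0.11), where 5.16% of all genes passed in either direction, and 0 passed with BaP, where 3.53% did. All 26 intervals lay within 1.5-fold for both ligands. The response of *c*35 cells minus that of wild-type cells was tested directly, with 0 of 26 genes called for TCDD (0.28% of all genes) or BaP (1.34%). At an unadjusted p below 0.05, 2 members differed in their TCDD response (7.9% of all genes) and 8 in their BaP response (14.5%). For BaP, *Fdps* differed between lines by 0.44 (SE, 0.11; adjusted p = 0.0473), below 1.5-fold: its change was 0.15 in *c*35 cells and -0.29 in wild-type cells. *Insig2* and *Npc1* followed at -0.47 (adjusted p = 0.120) and -0.44 (adjusted p = 0.181).

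Related genes outside the set were described from lists, which were chosen with earlier results of these data known. Of 14 measured genes of other sterol pathway functions, 2 were called higher and 2 lower in *c*35 cells with TCDD (6.32% and 8.65% of all genes), 1 and 3 with BaP (6.83% and 8.98%), and 2 and 2 with DMSO (6.52% and 7.52%). With so few genes these counts were not read as a result about the list. The median difference was -0.25 with TCDD, -0.38 with BaP and -0.22 in naive cells. *Cyb5r3*, a reductase that passes electrons to cytochrome b5, was higher by 1.04 with TCDD, 1.03 with BaP and 1.01 in naive cells, whereas *Mbtps1*, the site-1 protease that cleaves the SREBPs in the Golgi, was lower by -1.001, -1.33 and -1.04. *Lbr*, the lamin B receptor, which also has sterol reductase activity, was lower by -0.99, -1.13 and -1.06; *Tm7sf2*, its relative among the members, was described above. None of the 14 was called for a ligand in either line.

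Of 14 measured genes of liver X receptor signaling and sterol efflux or breakdown, 2 were called higher in each of the 3 comparisons between lines, and 2 lower with TCDD, 3 with BaP and 2 in naive cells, beside the same shares of all genes. *Nr1h3*, which encodes the receptor LXRα, was higher in *c*35 cells by 0.76 with TCDD, 0.67 with BaP and 0.71 in naive cells, and *Lpcat3*, a lysophospholipid acyltransferase, by 0.87, 0.59 and 0.66. *Cyp7b1*, an oxysterol hydroxylase, had the largest difference of any listed pathway gene. Its mean log2 signal was 3.88 with TCDD, 3.98 with BaP and 3.41 with DMSO in *c*35 cells, and 9.02, 9.06 and 9.37 in wild-type cells, so that it was below the median signal of 5.65 in *c*35 cells. *Cyp27a1*, the sterol hydroxylase of mitochondria, was lower by -0.60, -1.01 and -0.88. *Apoe*, an apolipoprotein, was called lower with BaP alone (-0.74). None was called for a ligand.

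All 16 fatty acid targets of the SREBPs were measured. Between lines 1 was called higher in each comparison, *Scd1*, a fatty acid desaturase, by 0.84 with TCDD, 0.71 with BaP and 0.86 in naive cells, and 1 was called lower with BaP, *Lpin1*, by -0.68, beside the same shares of all genes. Their median differences were 0.13, 0.11 and 0.13, below the median of the cholesterol enzymes, at 0.99, 0.83 and 0.70; no test was made of the difference between these lists. *Lpin1*, a phosphatidate phosphatase, was the 1 listed gene called for a ligand. It was at 8.34, 8.32 and 8.49 with BaP and 7.66, 7.39 and 7.56 with DMSO in wild-type cells, and rose by 0.85 (SE, 0.09; adjusted p = 3.18e-06). With TCDD the wild-type arrays were at 7.78, 8.03 and 7.95, above the DMSO arrays. That rise of 0.39 (adjusted p = 0.0371, limma) was below 1.5-fold and not called. On *c*35 arrays it was at 7.74, 7.66 and 7.73 with BaP and 7.62, 7.76 and 7.60 with DMSO, which overlapped, and the response of *c*35 cells minus that of wild-type cells was -0.80 (SE, 0.12; adjusted p = 0.000899).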

How the data were processed

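Expression was measured on 18 Affymetrix mouse arrays, 3 for each of 6 groups of *c*35 and wild-type cells. The authors deposited log2 signals made, per the submitters' processing notes, by robust multiarray averaging (RMA), which corrects background, normalizes between arrays and summarizes probes; the RMA version was not given in the sources used. Values were used as deposited. The table holds 45101 probe sets, of which 64 are Affymetrix controls and were not tested; of the other 45037, 34945 carried 1 gene symbol in the platform annotation, 932 several and 9160 none.

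After the methods of the study, limma 3.58.1 in R 4.3.3 was used to fit 1 mean per group over the 18 arrays, with an intensity trend in eBayes and Benjamini-Hochberg adjustment over all probe sets tested. The call required an adjusted p below 0.05 and over 1.5-fold, and in *c*35 cells, for ligands, only an adjusted p below 0.1. Percentages of all genes called use 1 probe set per gene. The number of arrays limits the precision, and p-values measure the spread between the replicate arrays. Every measured member is accounted for by role; values on each array are given for the 8 called members of largest difference between naive lines, for genes called for a ligand, and for members that passed the adjusted p alone, the last, and other members whose values single them out, chosen after their values were seen. Of the other lists, called genes of largest change, at most 3 per list and comparison, are named. The members and lists were chosen with earlier results of these data known. The fit was tested on simulated data. Motifs were counted with Python 3.11.15 and pandas 2.3.3, and figures drawn with matplotlib 3.10.9.

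Alternatives were quantile normalization, median centring, array weights, no intensity trend, no minimum change, only the groups compared, no dim probe sets, all probe sets of a gene averaged, the *Actb* gap in the fit, the replicate number as a block, and each array left out in turn.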

Additional observations from a re-analysis of the deposited data

Results flagged for a closer look

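Both results here were singled out because the BaP response differed between the lines in a test of the difference itself. For *Fdps* the difference, *c*35 minus wild-type, was 0.444 on the log2 scale (SE, 0.111; adjusted p = 0.0473, limma), below 1.5-fold. With each of the 12 arrays concerned left out in turn it lay between 0.39 and 0.53, with adjusted p-values of 0.00437 to 0.143, and without the 3 *c*35 arrays of high *Cyp1a1* signal it was 0.36 (adjusted p = 0.590). That fit keeps 1 *c*35 DMSO array, assumed to vary like the arrays of the other groups, so its p says little. For *Lpin1*, a fatty acid target of the SREBPs, the difference was -0.804 (SE, 0.121; adjusted p = 0.000899). It was called with each array left out, at -0.86 to -0.73, and was -0.76 (adjusted p = 0.0711) without those 3 arrays, again with 1 *c*35 DMSO array.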

How the results depend on the processing

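No called difference was reversed under any alternative run. With no minimum change, the number of members called was 20 between lines with TCDD, 22 with BaP and 20 in naive cells, 2 for BaP against DMSO in wild-type cells, and 1 for the difference in BaP response. With each array left out in turn, 11 to 15 members were called between lines with TCDD, 14 with BaP whichever array was left out, and 9 to 12 in naive cells, and 0 in every comparison of a ligand or of a response. Under all the alternatives with the minimum change kept, including the 3 *c*35 arrays left out after seeing the data (1 *c*35 DMSO array remained), these counts stayed within 1.5 times those of the report. The 9 genes called in all 3 comparisons between lines remained so under 14 of 17 alternatives in naive cells, 15 of 16 with TCDD and 16 of 17 with BaP; the exceptions are given in the report.

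The labels number the replicates alike in all groups. With the replicate number as a block, 13 members were called between lines with TCDD, 14 with BaP, 10 in naive cells and 0 for any ligand or response, and no call of a named gene changed. Deviations from group means of same-numbered arrays correlated at -0.255 to 0.219, so the numbers were not taken to pair the samples.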
